A study of Mus musculus with 16 samples.

Results

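The heme synthesis pathway and the electron supply of the cytochrome P450 enzymes were followed in mouse liver through 9 genes, namely Alas1, Alad, Uros, Urod, Cpox, Ppox, Fech, Hmox1 and Por. They were taken by name, and every probe whose RefSeq accession mapped to one of these symbols was used, which gave 11 of the 41174 probes on the array and 9 of its 19096 named genes. Alas1 and Fech had 2 probes each and the other genes had 1, and all 11 probes were well above background on all 16 arrays. A gene is given below by its brightest probe unless a second probe is named. The study asked how loss of Gadd45b alters the liver's response to phenobarbital (PB), which promotes liver tumours in mice first given the carcinogen diethylnitrosamine (DEN). RNA came from liver tissue outside tumours of male mice at 57 weeks of age, with 1 array per mouse and 4 mice in each of 4 groups. WT DEN mice were wild type C57BL/6J given DEN at 90 mg/kg at 5 weeks of age, and WT DEN + PB mice had in addition PB at 0.5 g/l in their water from 7 weeks on. KO DEN and KO DEN + PB mice carried a null allele of Gadd45b in all their cells and had the same respective treatments, so every mouse had received DEN and no group was free of it. By its stock name the KO line carries another strain beside C57BL/6, so that genotype and any difference in strain background cannot be told apart.

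Heme is made in steps that begin and end in the mitochondrion. ALAS1 carries out the first and rate-limiting step in liver, ALAD, UROS, UROD, CPOX and PPOX turn its product into protoporphyrin, and FECH inserts the iron, while HMOX1 breaks heme down. Hepatic P450 enzymes hold heme in their active site and receive electrons from NADPH through POR, and PB is a classical inducer of P450 enzymes through the nuclear receptor CAR.

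The 75th percentile of the processed signal lay between 136.9 and 294.3 over the 16 arrays, and each value below is a log2 signal relative to that percentile of its array, a unit in which 1 is a doubling. The share of probes well above background was 57.6% to 67.3%, and no spot was saturated. Both probes of Gadd45b, the targeted gene, were detected above background in 8 of 8 WT mice and in 0 of 8 KO mice. Of 10 hepatocyte markers 9 had a probe, and these 9 were well above background on all 16 arrays. A change was called at a limma p under 0.05 after Benjamini-Hochberg adjustment over all probes tested together with a change of 1.5-fold or more. Errors of log2 changes are standard errors (SE) of the fit, and the number of arrays limits their precision.

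PB was first compared with DEN alone. Over both genotypes, 2 of the 9 genes were called, Alas1 and Por, both higher with PB, and the others were not. Of all 13305 genes tested, 1.53% were called higher in this comparison.

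Alas1, the first enzyme of the pathway, had signals of 4.92, 4.01, 4.59 and 3.90 on WT DEN arrays 1 to 4. With PB the WT arrays stood at 5.58, 6.04, 6.96 and 5.60. These groups did not overlap, with the lowest PB array above the highest DEN array, as held for 3.21% of all genes. In KO the DEN arrays stood at 5.31, 4.00, 4.19 and 5.12 and the DEN + PB arrays at 5.31, 6.62, 6.37 and 7.06. Here the groups met, since replicate 1 of each was at 5.31 after rounding, and before rounding every PB array was the higher, as held for 4.58% of all genes. The WT mean was 4.36 ± 0.48 without and 6.05 ± 0.65 with PB, and the KO mean 4.65 ± 0.66 without and 6.34 ± 0.74 with PB (SD, n = 4 each). The order of the groups was WT DEN, KO DEN, WT DEN + PB, KO DEN + PB, and the genotypes overlapped under either treatment.

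The log2 change of Alas1 over both genotypes was 1.69 ± 0.29, which is 3.23-fold with a 95% interval of 2.12 to 4.90 (limma adjusted p = 0.00287). The exact permutation test with labels exchanged within each genotype gave p = 0.000408, the smallest its 4900 assignments can give. Within KO the change was 1.69 ± 0.40 and was called (limma adjusted p = 0.0422). Within WT it was also 1.69 ± 0.40 but missed the threshold (limma adjusted p = 0.0803). Every PB array was higher there, which alone fixes the two-sided exact permutation p at 0.0286, the smallest that 4 arrays against 4 allow. This exact p therefore adds nothing to the lack of overlap. Alad with PB in KO had the same exact p beside a limma adjusted p of 0.84. With slide as a block the change was 1.42 in WT (limma adjusted p = 0.151), 1.96 in KO (0.0159) and 1.69 over both (0.00173), and within slides it was positive on 3 of 3 slides in each genotype, from 0.99 to 1.64 in WT and from 1.32 to 3.06 in KO.

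The second probe of Alas1 gave 2.71, 1.59, 2.11 and 1.73 in WT DEN and 3.65, 3.92, 4.88 and 3.08 in WT DEN + PB. In KO it gave 3.19, 1.53, 1.80 and 3.05 under DEN and 3.05, 4.63, 4.00 and 5.01 with PB, so that PB replicate 1 lay below the highest DEN array and the groups overlapped. The change over both genotypes by this probe was 1.81 ± 0.33 and was called (limma adjusted p = 0.00567), but neither genotype alone was past the threshold (limma adjusted p = 0.119 in WT and 0.0698 in KO). The difference between the probes stayed between 1.93 and 2.52 over the 16 arrays, so the probes moved together from array to array.

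Among mice of one group Alas1 varied more than the other members. Its residual SD was 0.64, above that of 95.2% of genes, while the other 8 members had 0.19 to 0.31 and the median gene 0.27. The call in KO alone was lost without any 1 of 10 arrays, namely WT DEN replicates 2 and 4, WT DEN + PB replicates 1 and 2, KO DEN replicates 2, 3 and 4 and KO DEN + PB replicates 2, 3 and 4, with an adjusted p of up to 0.13, and it held under 5 of 13 alternative settings. In WT the gene was called without KO DEN + PB replicate 1 (limma adjusted p = 0.0402) and not without any other array. Over both genotypes Alas1 was called without each of the 16 arrays in turn.

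**Figure D1:**
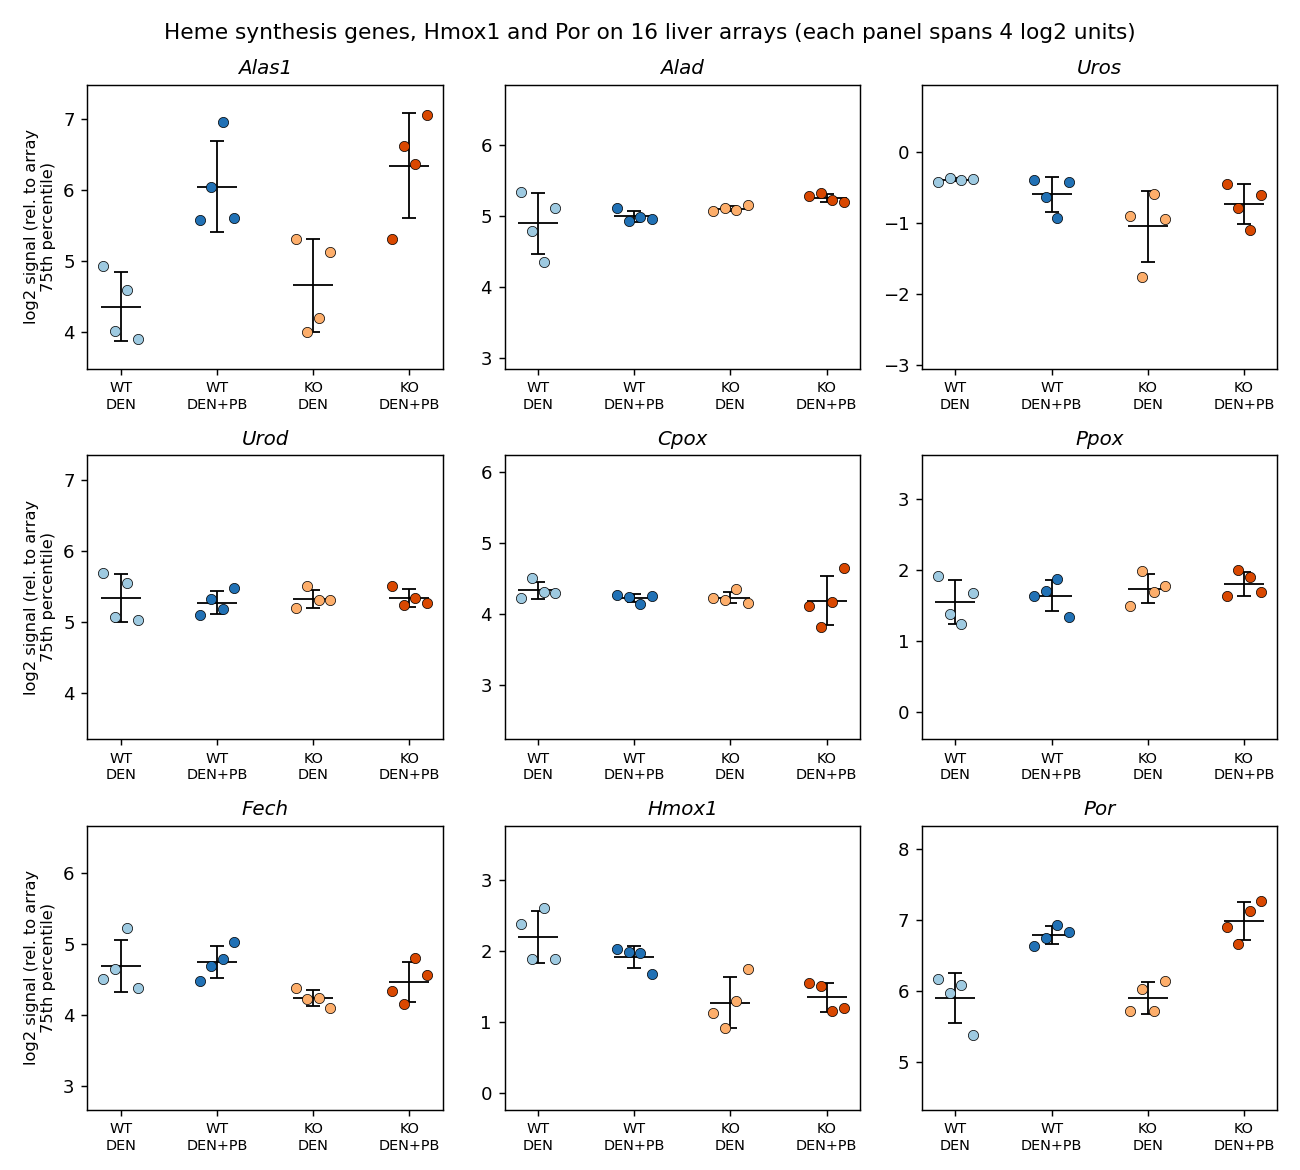
Log2 signal of the 9 genes (brightest probe) relative to the 75th percentile of the array, 1 point per mouse in each of the 4 groups, with the group mean (bar) and SD (whisker, n = 4), every panel spanning the same 4 log2 units. Alas1 and Por stand higher in both DEN + PB groups and Hmox1 lower in both KO groups, while the points of Urod, Cpox and Ppox overlap across the groups.

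Por, the reductase that passes electrons from NADPH to the microsomal P450 enzymes and to heme oxygenase, had signals of 6.17, 5.97, 6.09 and 5.39 in WT DEN. With PB the WT arrays stood at 6.64, 6.75, 6.94 and 6.84. The KO arrays stood at 5.72, 6.03, 5.72 and 6.15 under DEN and at 6.90, 6.67, 7.13 and 7.27 under DEN + PB. In both genotypes every PB array lay above every DEN array, as held for 3.21% of all genes in WT and 4.58% in KO. WT DEN replicate 4 was the lowest of all 16. The means were 5.91 ± 0.35 and 5.91 ± 0.22 in WT DEN and KO DEN and 6.79 ± 0.13 and 6.99 ± 0.26 in WT DEN + PB and KO DEN + PB (SD, n = 4 each), and the genotypes overlapped under either treatment.

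The log2 change of Por with PB was 0.89 ± 0.19 in WT (1.85-fold, limma adjusted p = 0.0335), the only 1 of the 9 genes called there, against 0.654% of all genes called higher. In KO it was 1.09 ± 0.19 (2.12-fold, limma adjusted p = 0.00488), and Por and Alas1 were the 2 members called, against 1.26% of all genes called higher. Over both genotypes it was 0.99 ± 0.13, or 1.98-fold with a 95% interval of 1.63 to 2.40 (limma adjusted p = 0.000288), and the exact permutation test within genotypes gave p = 0.000408. Within slides the change was positive on 3 of 3 slides in each genotype, from 0.55 to 1.16 in WT and from 0.95 to 1.24 in KO. With slide as a block the change in WT was 0.81 and no longer called (limma adjusted p = 0.106), while those in KO (0.00773) and over both (0.000783) were. In WT the call was also lost without WT DEN replicate 2 or 4 or any 1 of the 4 WT DEN + PB arrays, with changes down to 0.71 and an adjusted p of up to 0.125, and it held under 6 of 13 alternative settings. The call in KO remained without each of the 16 arrays in turn.

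The sequences before the start sites of the genes that rose are shown because PB acts on its target genes through receptors that bind DNA. RefSeq windows (GRCm38.p6) of 250 bases before a start site were at hand for 7 of the 9 genes, and none was at hand for Hmox1 or Fech. Capitals mark GGGCGG on either strand, the GC box. They do not mark the nuclear receptor half-site AGGTCA, which had 0 matches in the windows shown. Alas1 is shown on the minus strand at chr9:106247955-106248204 and Por on the plus strand at chr5:135688895-135689144.
Alas1: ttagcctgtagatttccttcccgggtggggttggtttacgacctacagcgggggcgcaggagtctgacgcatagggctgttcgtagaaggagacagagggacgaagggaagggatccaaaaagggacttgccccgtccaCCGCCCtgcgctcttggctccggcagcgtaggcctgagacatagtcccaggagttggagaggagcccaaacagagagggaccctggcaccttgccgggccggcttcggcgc
Por: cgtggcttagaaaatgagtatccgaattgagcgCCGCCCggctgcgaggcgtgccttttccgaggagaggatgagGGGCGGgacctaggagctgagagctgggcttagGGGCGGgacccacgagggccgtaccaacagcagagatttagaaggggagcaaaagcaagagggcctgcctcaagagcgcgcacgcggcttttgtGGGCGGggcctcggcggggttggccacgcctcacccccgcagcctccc

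The GC box stood 1 time in the Alas1 window shown, 0 times in the window of the other start site of Alas1, and 4 times in the Por window. Genes not called with PB held it too, with 2 and 6 matches in the windows of Alad, 1 in that of Urod and 1 and 0 in those of Uros, while Cpox and Ppox had 0, and 32.7% of the 32851 windows of this length held it at least once. The half-site AGGTCA, read by many nuclear receptors, stood on neither strand of any window of the 7 genes, Alas1 and Por included, and in 14% of all windows. This says only that these letters are not in these bases.

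The 6 enzymes after ALAS1 showed no called change with PB. Over both genotypes the log2 changes of Alad, Uros, Urod, Cpox, Ppox and Fech lay between -0.08 and 0.14, and the lowest limma adjusted p was 0.773. The 95% intervals of all 6 stayed within 1.5-fold in either direction, the outer bounds being -0.31 and 0.43 on the log2 scale. Within a single genotype the intervals were wider. In WT the changes were -0.21 to 0.10 with 5 of 6 intervals within 1.5-fold, and in KO they were -0.04 to 0.31 with 4 of 6.

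Going down the pathway, Alad, which joins 2 molecules of aminolevulinic acid, changed by 0.12 ± 0.12 with PB over both genotypes. Its KO DEN + PB arrays, at 5.19 to 5.32, all lay above the KO DEN arrays, at 5.07 to 5.15. Groups were apart upward in this way for 4.58% of all genes, and the Alad change of 0.15 ± 0.17 was not called (limma adjusted p = 0.84). Uros, which closes the porphyrin ring, changed by -0.21 ± 0.22 in WT and 0.31 ± 0.22 in KO, neither called. Urod, Cpox and Ppox, which remove carboxyl groups and hydrogen from the ring, changed by -0.03 ± 0.11, -0.08 ± 0.11 and 0.08 ± 0.12 over both genotypes. Fech changed by 0.14 ± 0.14, and by 0.12 ± 0.16 on its second probe. In KO the 95% interval of Uros reached 0.77 and that of Fech 0.63, both above 1.5-fold.

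Hmox1, the inducible heme oxygenase, changed by -0.28 ± 0.20 with PB in WT and by 0.08 ± 0.20 in KO, and neither was called. Its change over both genotypes was -0.10 ± 0.14, with an interval of -0.40 to 0.20 that lay within 1.5-fold.

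The effect of PB was then compared between the genotypes, as the effect in WT minus that in KO. None of the 9 genes was called (limma), nor was any of the 13305 genes by its brightest probe, which is 0% of them, though 881 of those genes and 0 of the 9 had an unadjusted p under 0.05. The difference was 0.00 ± 0.57 for Alas1 and -0.20 ± 0.26 for Por. These values do not show that the genotypes responded alike, since the 95% interval ran from -1.20 to 1.21 for Alas1, more than a doubling either way, and from -0.76 to 0.36 for Por. Of the 9 genes Uros had the largest fitted difference, -0.52 ± 0.31 (limma adjusted p = 0.925).

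**Figure D2:**
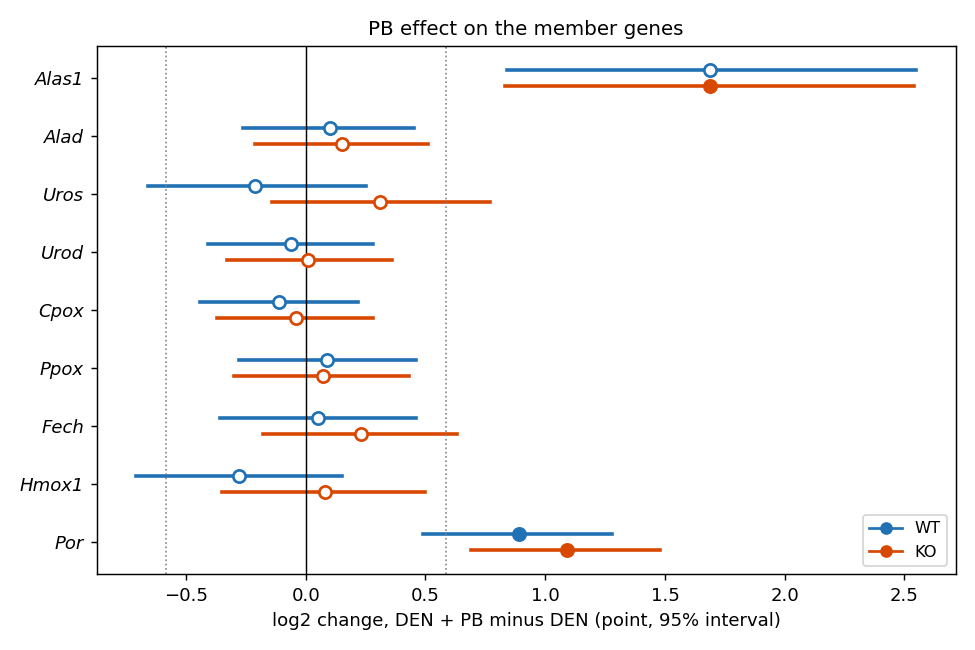
Log2 change with PB (DEN + PB minus DEN) of the 9 genes in WT and KO, as the fitted value with its 95% interval, filled where called, with dotted lines at 1.5-fold. Por was called in both genotypes and Alas1 in KO (1.69 in both), and the 6 enzymes after ALAS1 lay between -0.21 and 0.31.

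Further genes of the pathway were described from lists. With PB 0.737% of all genes were called in WT, 2.13% in KO and 2.13% over both genotypes. At these shares a count of 0 in so short a list does not show that its genes failed to respond. Of 14 other genes of heme synthesis and its mitochondrial transport, 0 were called in either genotype, and over both genotypes 1 was called lower, Clpx (-0.67 ± 0.16, limma adjusted p = 0.0421), the unfoldase that acts on ALAS proteins in mitochondria. The list's median change was 0.05 against -0.01 for all genes.

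Of 16 genes of heme transport and breakdown, Slc48a1, a lysosomal heme transporter, rose with PB in WT (0.88, limma adjusted p = 0.0116) and over both genotypes (0.67, adjusted p = 0.00292). The other 15 were not called in either comparison, and 0 of 16 were called in KO. Slc48a1 changed by 0.46 ± 0.16 in KO (limma adjusted p = 0.202). Its difference between the genotypes, 0.42 ± 0.23, was not called (limma adjusted p = 0.892). Hmox2, the constitutive heme oxygenase, changed by -0.03 over both genotypes, and Hpx, the plasma carrier of heme, by 0.00.

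Of 12 regulators, only Nr1d1, a heme-binding repressor of the circadian clock, was called. It rose with PB in KO by 1.78 (limma adjusted p = 0.0021) and over both genotypes by 0.89 (0.0215), and its change in WT was -0.01. The difference between the genotypes was not called (limma adjusted p = 0.205). Nr1i3, which encodes CAR, changed by -0.26 in WT and 0.24 in KO, and Ppargc1a, a coactivator known to raise Alas1 on fasting, by -0.19 and -0.07, none of them called. Of 15 other genes of electron supply, 0 were called in any of the 6 comparisons, where 0% to 7.61% of all genes were. Among the 15 were Cyb5a and Cyb5r3 of the cytochrome b5 route, Pgrmc1, and G6pdx and Pgd that make NADPH. The median change of the 15 with PB over both genotypes was 0.11.

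Among the enzymes that take electrons from POR, some changed further than the members did and most were not called. Of 71 such genes, most of them P450 genes, 61 had a probe and were tested. With PB 11 rose and 0 fell in WT, 17 rose and 2 fell in KO, and 18 rose and 1 fell over both genotypes, where 42 were not called, against 0.737%, 2.13% and 2.13% of all genes called in either direction. The list's median change over both genotypes was 0.28, against -0.01 for all genes. The largest measured log2 changes in WT and KO were those of Cyp2b10 (6.69 ± 0.62 and 6.80 ± 0.62), Cyp2b13 (6.28 ± 0.52 and 6.69 ± 0.52), Cyp2b9 (5.19 ± 0.43 and 5.95 ± 0.43) and Cyp2c66 (5.18 ± 0.56 in both). Cyp2c66 was detected above background on 3 of 4 KO DEN arrays, and Cyp2b23, among the 18 called higher over both, on 0 of 4 arrays of either DEN group. Genes of the Cyp2b and Cyp2c families are near copies of each other, so their probes may share signal and the count of separate genes is uncertain. Cyp2u1 fell over both genotypes (-1.18 ± 0.20, limma adjusted p = 0.00339), and Cyp39a1, an oxysterol hydroxylase, fell in KO (-1.12 ± 0.26, adjusted p = 0.0356).

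**Figure D3:**
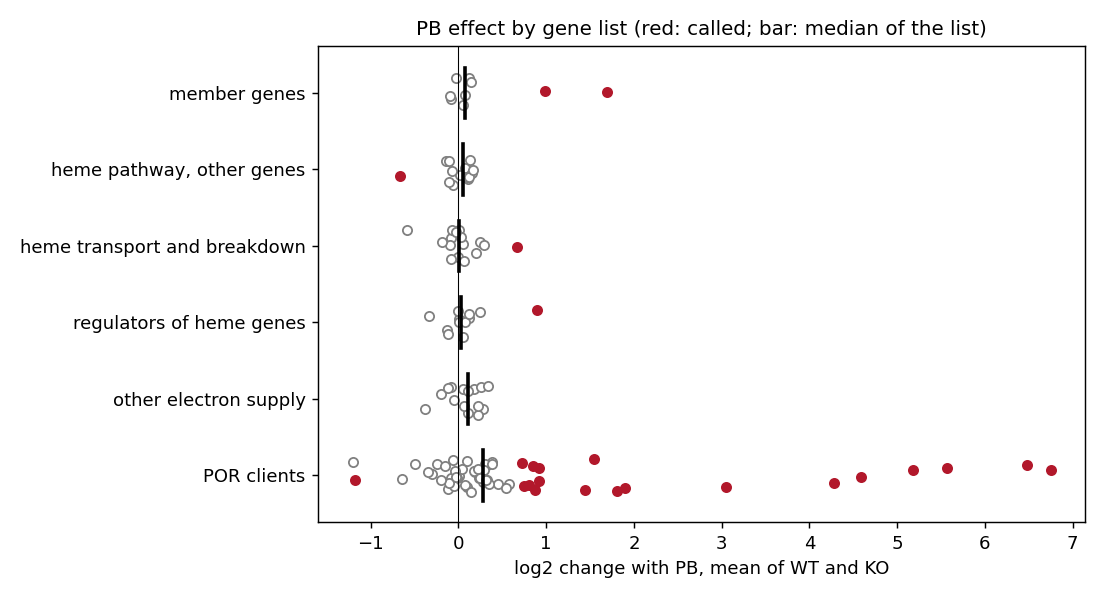
Log2 change with PB, the mean of WT and KO, of each tested gene (point, red where called) by list, with the median of the list as a bar and the vertical spread of points within a list without meaning. Among the 9 member genes Alas1 (1.69) and Por (0.99) stand apart from 0, 15 other electron supply genes hold no called gene, and the POR clients reach 6.75.

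The genotypes were compared under each treatment. Under DEN 1 of the 9 genes was called, Hmox1, lower in KO, while 2.76% of all genes were called and 1.74% were called lower. Under DEN + PB 0 of the 9 genes were called (limma), with 1 at an unadjusted p under 0.05, while 7.61% of all genes were called in either direction.

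The Hmox1 signal was 2.38, 1.89, 2.61 and 1.89 in WT DEN and 1.13, 0.91, 1.29 and 1.75 in KO DEN. With PB it was 2.02, 1.99, 1.97 and 1.68 in WT and 1.54, 1.51, 1.15 and 1.19 in KO. Under both treatments every KO array lay below every WT array, which held downward for 6.34% of all genes under DEN and 9.85% with PB. The order of the group means from low to high was KO DEN (1.27 ± 0.36), KO DEN + PB (1.35 ± 0.21), WT DEN + PB (1.92 ± 0.16) and WT DEN (2.19 ± 0.36; SD, n = 4 each), and within a genotype the 2 treatments overlapped.

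Hmox1 was lower in KO by a log2 change of -0.92 ± 0.20 under DEN, 1.90-fold with a limma adjusted p of 0.0219. Under DEN + PB the change was -0.57 ± 0.20, 1.48-fold, and was not called (limma adjusted p = 0.103). The difference between these, which is the interaction, was -0.35 ± 0.29 (limma adjusted p = 0.965), so the genotype difference was not shown to depend on PB. With slide as a block the value under DEN was -1.09 (limma adjusted p = 0.0447), and within slides it was -1.48 and -1.47 on the 2 slides that held both groups. Under DEN + PB it was negative on 4 of 4 slides, from -0.82 to -0.14. The call under DEN was lost without WT DEN replicate 1 or 3 or KO DEN replicate 1 or 2, with a change as small as -0.78 and an adjusted p of up to 0.0751, and it held under 9 of 13 alternative settings.

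Markers of Kupffer cells and other macrophages, which also express Hmox1 and clear the heme of old red cells, moved with genotype. All 14 markers on the list were well above background on all 16 arrays. Their summed signal, in multiples of the 75th percentile, was 74.6 to 249 in WT DEN, 89.7 to 104 in WT DEN + PB, 49.4 to 68.1 in KO DEN and 34.8 to 69.1 in KO DEN + PB. In KO 6 of 14 were called lower under DEN, with a median change of -1.01, and 11 of 14 under DEN + PB, with a median of -1.32. Among them Adgre1, the macrophage marker F4/80, was lower by -1.94 and -1.95, Vsig4 by -1.71 and -2.33, and Cd68 by -1.35 and -1.77. WT DEN replicate 3 had both the highest marker sum, 249, and the highest Hmox1 signal, 2.61. In KO DEN, replicate 4 was highest in both (68.1 and 1.75). In WT DEN + PB the highest sum was at replicate 2 (104) and the highest Hmox1 at replicate 1 (2.02). In KO DEN + PB they were likewise at replicate 2 (69.1) and replicate 1 (1.54). In whole tissue fewer cells of a type and less RNA per cell cannot be told apart, and the part of these cells in the Hmox1 difference was not tested. Of 10 endothelial and stellate markers 2 were also called lower in KO under DEN and 4 under DEN + PB. Of 5 cholangiocyte markers 0 were called between the genotypes under DEN, and 3 were lower in KO with PB, Krt7 (-1.06), Krt19 (-0.93) and Epcam (-1.20). Krt7 (1.16) and Krt19 (1.27) were also called higher with PB in WT. In KO 0 of the 5 were called with PB, and Krt7 and Krt19 changed by -0.13 and -0.22. The difference between the genotypes was not called for either (limma adjusted p = 0.325 and 0.162). Por was called with PB in both genotypes. The 9 hepatocyte markers had a median change with PB of -0.31 in WT and 0.04 in KO, with 0 called. Between the genotypes their median was -0.04 under DEN, with 0 called. Under DEN + PB it was 0.34, with 1 called, Tat (0.67, higher in KO). The part of these cell types in the values of the 9 genes was not tested.

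**Figure D4:**
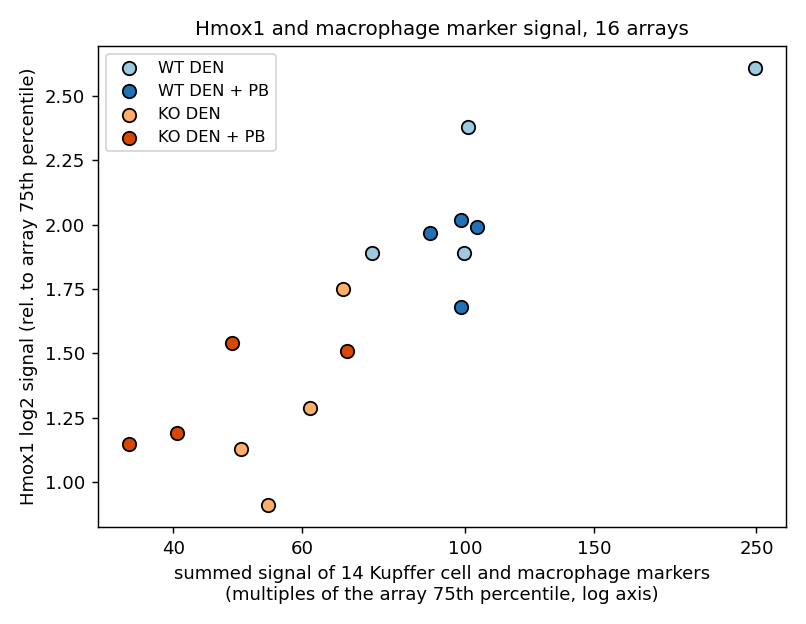
Hmox1 log2 signal of each of the 16 arrays (vertical axis, relative to the 75th percentile of the array) against the summed signal of 14 macrophage markers (horizontal log axis, in multiples of that percentile), 1 point per mouse, coloured by group. The 8 KO points lie at marker sums of 34.8 to 69.1 and Hmox1 of 0.91 to 1.75, and the 8 WT points at 74.6 to 249 and 1.68 to 2.61.

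Uros and Fech were lower in KO DEN than in WT DEN without passing the threshold. Uros stood at -0.42, -0.37, -0.40 and -0.38 in WT DEN and at -0.90, -1.76, -0.59 and -0.95 in KO DEN. The groups did not overlap, as held downward for 6.34% of all genes. The WT arrays lay within 0.05 of each other, and KO DEN replicate 2 was the lowest. The change was -0.66 ± 0.22 (limma adjusted p = 0.102), and without KO DEN replicate 2 it was -0.42. Under DEN + PB the groups overlapped, with a change of -0.14 ± 0.22.

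Fech, the last enzyme of the pathway, was at 4.51, 4.64, 5.22 and 4.38 in WT DEN and at 4.37, 4.22, 4.24 and 4.10 in KO DEN. The groups did not overlap by a narrow margin, and groups were apart downward for 6.34% of all genes. The change was -0.46 ± 0.19 (limma adjusted p = 0.194). On the second probe of Fech the groups overlapped, with a change of -0.39 ± 0.22 (0.35). On the brightest probe WT DEN replicate 3 carried much of the difference, which was -0.28 without it. On the second probe the same array was the lowest of its group, at 2.72. The difference between the probes ran from 1.32 to 2.60 over the 16 arrays.

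Alad was the member that stood higher in KO on every array under DEN + PB, as 7.46% of all genes did, at 5.19 to 5.32 against 4.93 to 5.11 in WT, a change of 0.26 ± 0.17 that was not called (limma adjusted p = 0.379). Alas1 and Por did not differ by a called change between the genotypes. The change of Alas1 was 0.30 ± 0.40 under DEN and 0.29 ± 0.40 under DEN + PB, with an interval of -0.56 to 1.15 in both, and that of Por was 0.00 ± 0.19 and 0.20 ± 0.19.

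**Figure D5:**
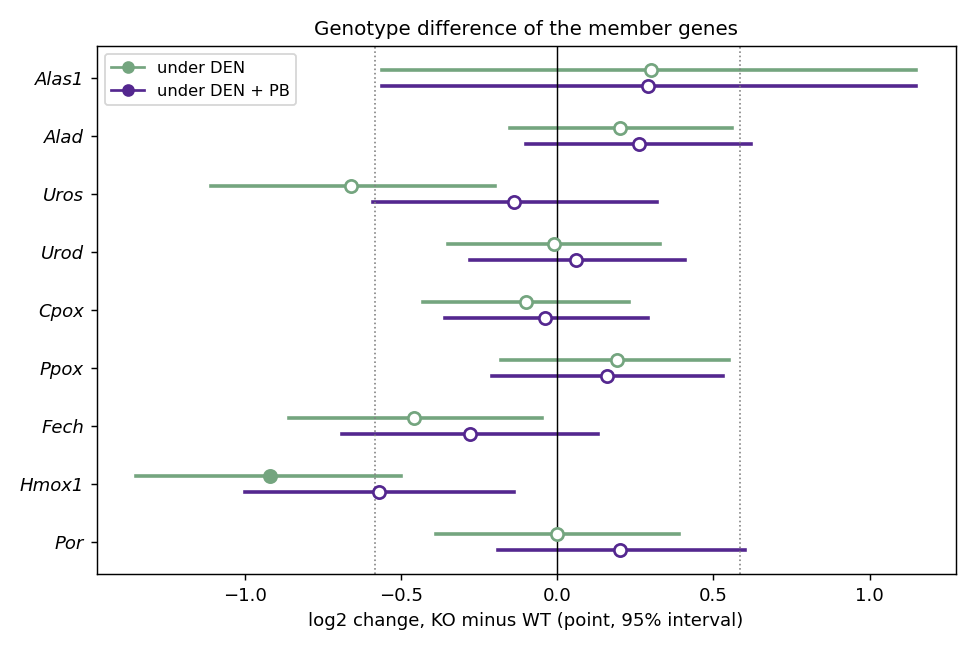
Log2 change between the genotypes (KO minus WT) of the 9 genes under DEN and under DEN + PB, as the fitted value with its 95% interval, filled where called, with dotted lines at 1.5-fold. Hmox1 under DEN (-0.92) is the only filled point, and the intervals of Uros and Fech under DEN also lie below 0 without an adjusted p past the threshold.

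The genotypes were also compared over the listed pathway genes, where 2.76% of all genes were called under DEN and 7.61% with PB. Of the 16 genes of heme transport and breakdown, Lrp1, a receptor that takes up heme bound to hemopexin, was higher in KO under DEN (0.93, limma adjusted p = 0.0422). Under DEN + PB the heme-binding protein gene Hebp2 (-1.38, limma adjusted p = 0.00836) and Flvcr1, first described as a heme exporter (-0.82, adjusted p = 0.0459), were lower in KO. Nr1d1 was lower in KO under DEN (-1.66, limma adjusted p = 0.00496) and changed by 0.13 under DEN + PB. None of the 14 other synthesis genes was called under either treatment (limma). Of the 61 POR clients 1 was called under DEN, Cyp2j9 (0.90 ± 0.22, higher in KO), and 4 under DEN + PB, with Cyp4f15 (0.64), Cyp2c40 (0.79) and Cyp2d13 (0.79) higher and Cyp39a1 (-1.53) lower in KO, counts that lie near the shares for all genes. Erythroid markers bear on Alas2 and other heme genes of red cell precursors. Of 17, 12 had a probe and 6 were tested, and under DEN + PB Klf1 was higher (0.85) and Tfrc lower (-1.26) in KO.

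The genes whose pattern over the 16 arrays was most like that of a called member were found by the root mean square difference of log2 signals, each gene centred on its mean. Abcc3, an export pump of conjugates, was nearest to Por at 0.22, where the median over 13304 genes was 0.62. Cyp2c29, 4931406C07Rik, Cyp2c37 and Rhbdd2 followed at 0.25 to 0.28. Ifi30, a lysosomal thiol reductase, was nearest to Hmox1 at 0.19, against a median of 0.54, and Lrrc25, Cfp, Slc37a2 and Timm29 followed at 0.23 to 0.24. No gene came as near to Alas1. Its nearest were Sult1c2, Prss8, Sox1, Por and Cyp2c39 at 0.61 to 0.63, against a median of 1.07 and 1.02 for Alas1 around its own mean.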

How the data were processed

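Liver RNA of 16 mice was hybridized to Agilent 4 x 44 whole mouse genome arrays with 1 colour. The authors' Feature Extraction software (12.0.3.1) wrote the deposited processed signal, an intensity corrected for background on a linear scale and not scaled between arrays. The authors' deposited table of intensity values for the series equalled the mean processed signal of each probe to within 5e-04 percent, and the normalization before their own test is not given in the sources used here. All columns belonged to the 4 groups.

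Spots with an outlier mark (71 to 122 per array) were left out, spots of a probe averaged, and log2 signal minus the array's 75th percentile used. Testing was limited to the 24455 probes (13305 named genes) for which the 4 arrays of some group were all well above background. RefSeq (GRCm38.p6) accessions matched 28223 probes to a symbol. limma 3.58.1 in R 4.3.3 fitted 4 group means to all 16 arrays, and calls followed the fold (1.5) and adjusted p (0.05) that the study used. The contrasts were the PB effect in WT, in KO and over both, their difference, and KO minus WT under either treatment; they share groups. Single genes were also tested by two-sided exact permutation (70 assignments of 4 against 4). Slide, known from the array barcode, was tried as a block, since slide 2 held no KO DEN and slide 4 no WT DEN array. All arrays had 1 scan day.

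The alternatives were other background corrections, scalings and filters, outlier spots kept, blocks, fits of the compared groups alone, no moderation, the mean of a gene's probes, and each array left out. Normexp (offset 50) was run on the median spot signal, in place of the mean planned. The members, lists and tests were chosen with earlier results of these data known. From each list, the called genes with the largest measured changes were to be named, at most 4 per comparison, and other list genes named here were chosen after their values were seen. For called members, the 5 genes nearest in pattern were named. Simulated data with known changes were used to test the fit.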

Additional observations from a re-analysis of the deposited data

Results flagged for a closer look

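In the WT DEN + PB group, the Hmox1 signal of replicate 4 was 1.68, while the other 3 arrays of the group were at 1.97 to 2.02. The gap, 0.86 of the range of the group, was above Dixon's 95% critical value for a group of 4. This was 1 of 44 groups examined over the 11 probes, and chance alone flags about 1 in 20. Replicate 4 still lay above the highest KO DEN + PB array, at 1.54.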

How the results depend on the processing

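The PB effect over both genotypes on Alas1 was called under all 12 alternatives (log2 change 1.59 to 1.75, limma adjusted p of at most 0.0389) and that on Por under 11 of 12, all but the normexp background (adjusted p = 0.0846), so that 1 member was called there in place of 2. Without each array in turn 2 members stayed called. The count in WT was 0 in place of 1 under the normexp background, the series table without scaling, no filter, the slide block, only the groups compared and no moderation, and 2 with normexp without outlying backgrounds. The count in KO was 0 in place of 2 under the normexp background and the series table, and 1 under quantile normalization, no filter, only the groups compared, no moderation and the mean of a gene's probes. The count for KO against WT under DEN, which is Hmox1, was 0 in place of 1 under the normexp background, the series table, no filter and only the groups compared. With 1 array left out the counts ranged from 0 to 2 in WT, 1 to 2 in KO and 0 to 1 for KO against WT under DEN. The calls over all genes moved with the setting too. In WT, in KO and for KO against WT under DEN they numbered 98, 283 and 367 in the main fit. They were 12, 41 and 12 under the normexp background, 61, 147 and 54 with the series table and 64, 153 and 137 with no filter. Quantile normalization gave 115, 288 and 420. The causes were not tested. The genotype comparison under DEN + PB and the interaction had 0 members called under every alternative run, and fits of only the groups compared were not run for contrasts that use all 4 groups.

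Replicate numbers are shared between groups, but same-numbered arrays did not deviate together more than other arrays did. Of 24 same-numbered pairs 6 had r over 0.1, with r from -0.21 to 0.36 and a median of 0.01. Of 72 pairs with different numbers 18 had r over 0.1, with r from -0.49 to 0.54 and a median of -0.02. With the replicate block 0 members were called in WT (Por adjusted p = 0.0805) and 1 in KO (Alas1 adjusted p = 0.0741).

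Changes near 0 turned sign, none of them called. With quantile normalization Urod over both genotypes was 0.01, the Por interaction 0.06 and Por between genotypes under DEN + PB -0.02. With the series table, where the median of all genes moved to -0.29 for PB in KO, -0.11 over both genotypes, -0.31 between genotypes under DEN + PB and 0.35 for the interaction, Hmox1 with PB in KO was -0.22, Uros and Ppox over both genotypes -0.04 and -0.02, the Hmox1 and Por interactions 0.04 and 0.20, and Alas1 and Por between genotypes under DEN + PB -0.04 and -0.14. Alas1 between genotypes under DEN was -0.24 with the slide block. Urod over both genotypes was 0.03, 0.01 and 0.01 without WT DEN replicate 1, WT DEN replicate 3 and KO DEN replicate 2, within -0.08 to 0.03 over the arrays left out. Without the last, Hmox1 with PB in KO was -0.04 (range -0.04 to 0.24) and Uros over both genotypes -0.06 (range -0.06 to 0.13).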
